A study of Cocos nucifera with 22 samples.

Results

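Putative nucleolar protein 5-2 (locus tag CN01_contig69612081G000010, listed as COCehwD000741.1) and the 25S rRNA (cytosine-C(5))-methyltransferase nop2 (CN01_01G013430, listed as COCehwD011902.1) are 2 of the 25247 coconut genes with reads in any library. Their products act in ribosome biogenesis, and both are among the stress-screened genes that the study lists for tall coconut leaves. The copy of that list used here was shortened and held 738 genes, so the gene groups drawn from it below may lack members. Both had been placed in the class of genes that rise early, with a mean level of at least 100 FPKM (fragments per kilobase of transcript, scaled to the depth of the library) at 4 h in the tall variety and at least 2-fold more than at 0 h. The tall values at 0 h and 4 h therefore chose both genes, and every tall value here is given as a description with no test. The level of nucleolar protein 5-2 in the tall at 4 h, 100.5 FPKM on average, lay just inside that limit, and that of nop2 was 219 FPKM.

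Ribosomes are assembled in the nucleolus, where precursor rRNA is cut, folded and chemically modified while ribosomal proteins are added. In yeast, the proteins of the NOP5 (Nop58) family form the core of box C/D small nucleolar ribonucleoproteins, which guide the methylation of ribose in rRNA. Nop2 of yeast methylates a cytosine of 25S rRNA with S-adenosylmethionine as the methyl donor, and is needed to mature the large ribosomal subunit.

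Leaves of Hainan tall and Aromatic dwarf coconut seedlings, grown in containers in a greenhouse, were sampled at 0 h and again 4 h later, on day 6 and on day 10 of irrigation with culture medium that held 200 mM NaCl. Each variety had 3 libraries at 0 h, 4 h and 6 days and 2 at 10 days, 22 in all. No leaves without salt were sampled after 0 h, so salt, time of day and age cannot be told apart, and a second irrigation fell between 6 and 10 days. Libraries of the same number in a variety came from the same leaf, as the methods state. The times thus repeat the same 3 leaves of a variety. The main test takes its spread from all 22 libraries of both varieties and treats libraries of the same leaf as independent. Its p-values are therefore not a measure of the spread between the 3 leaves of a variety, and they cover only the leaves sampled. In whole leaves, fewer cells of a type and less RNA per cell cannot be told apart.

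Libraries held 2977359 to 3445467 expected counts in total. Run names in the labels show 2 flow cells, called AV and AW here, with 11 libraries each. All 3 dwarf libraries of 0 h were on AV and all libraries of 10 days on AW, and the other groups held both. All 16 leaf marker genes (chlorophyll a-b binding proteins and the small subunit of Rubisco) were detected in every library, and 12 of them had at least 100 FPKM in every one. Their summed level was 58287 to 69458 FPKM in the dwarf at 0 h, 30547 to 41977 at 4 h, 83868 to 114916 at 6 days and 79133 to 86016 at 10 days. In the dwarf it was thus lowest at the time when both nucleolar genes were highest. In the tall it was 55083 to 69762 FPKM at 0 h, 72604 to 77653 at 4 h, 93253 to 115035 at 6 days and 73334 to 93103 at 10 days. Its part in the results was not tested.

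In the ASM812446v1 assembly of Hainan tall, nop2 is on chromosome 1 from 40407503 to 40419542, and nucleolar protein 5-2 lies on an unplaced contig from 511 to 5617. Another gene of the same nop2 annotation, CN01_11G005960, is on chromosome 11 from 41278410 to 41285959 and was not analysed here. Reads that fit several genes are split into fractions by the counting method. The counts of nucleolar protein 5-2 were whole numbers in 21 of 22 libraries and those of nop2 in 19, with the largest distance from a whole number 0.08 and 0.18 reads. Of all listed genes, 72.2% to 75.4% had whole counts in a library.

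Nucleolar protein 5-2 rose in level from 0 h to 4 h and then fell below its level at 0 h in both varieties. In the dwarf its level was 71.62, 50.81 and 61.41 FPKM in the 3 libraries of 0 h, with a mean of 61.3 ± 10.4 (SD, n = 3). At 4 h it was 126.08, 91.78 and 134.51 FPKM, with a mean of 117.5 ± 22.6 (SD, n = 3). The libraries of 4 h lay above all those of 0 h without overlap. By 6 days the dwarf level was 16.38, 10.55 and 21.44 FPKM, a mean of 16.1 ± 5.45 (SD, n = 3). In the libraries of 10 days it was 7.95 and 8.60 FPKM, a mean of 8.28 ± 0.46 (SD, n = 2). The libraries of 6 and 10 days lay below every dwarf library of 0 h and 4 h, and those of 10 days below those of 6 days. How many of all genes were set apart between 6 and 10 days was not computed, so nothing is read from that last order. Counts behind these levels ranged over all 22 libraries from 35 reads in the tall at 6 days to 759 reads.

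In the tall, nucleolar protein 5-2 was at 31.24, 45.88 and 38.22 FPKM at 0 h, a mean of 38.4 ± 7.32 (SD, n = 3). The level at 4 h was 62.83, 107.61 and 130.92 FPKM, a mean of 100.5 ± 34.6 (SD, n = 3). The groups did not overlap, although the first library of 4 h stood well below the other two. At 6 days the level was 6.00, 12.26 and 8.41 FPKM, a mean of 8.89 ± 3.16 (SD, n = 3), and at 10 days 9.84 and 10.43 FPKM, a mean of 10.1 ± 0.417 (SD, n = 2). The tall libraries of 6 and 10 days overlapped each other and were all below those of 0 h.

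The nop2 gene had higher levels in every library and the same order of times up to 6 days. In the dwarf at 0 h its level was 151.19, 129.35 and 145.23 FPKM, a mean of 142 ± 11.3 (SD, n = 3). At 4 h the level was 358.65, 230.10 and 335.32 FPKM, with a mean of 308 ± 68.5 (SD, n = 3). Every library of 4 h was above every library of 0 h. The dwarf level at 6 days was 46.42, 37.14 and 68.03 FPKM, a mean of 50.5 ± 15.8 (SD, n = 3). At 10 days it was 45.27 and 68.35 FPKM, a mean of 56.8 ± 16.3 (SD, n = 2). These late groups overlapped each other, and both lay below all dwarf libraries of 0 h.

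The tall level of nop2 was 85.01, 122.02 and 85.00 FPKM at 0 h, a mean of 97.3 ± 21.4 (SD, n = 3). At 4 h it was 158.98, 221.54 and 276.62 FPKM, a mean of 219 ± 58.9 (SD, n = 3). The library with the lowest level at 4 h was the first, as for nucleolar protein 5-2. The level at 6 days was 43.18, 51.22 and 37.19 FPKM, a mean of 43.9 ± 7.04 (SD, n = 3), and at 10 days 61.90 and 67.04 FPKM, a mean of 64.5 ± 3.63 (SD, n = 2). The tall libraries of 10 days lay above those of 6 days and below those of 0 h without overlap. How many of all genes were set apart between 6 and 10 days in the tall was not computed either. The counts of nop2 ranged from 219 to 2066 reads.

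**Figure D1:**
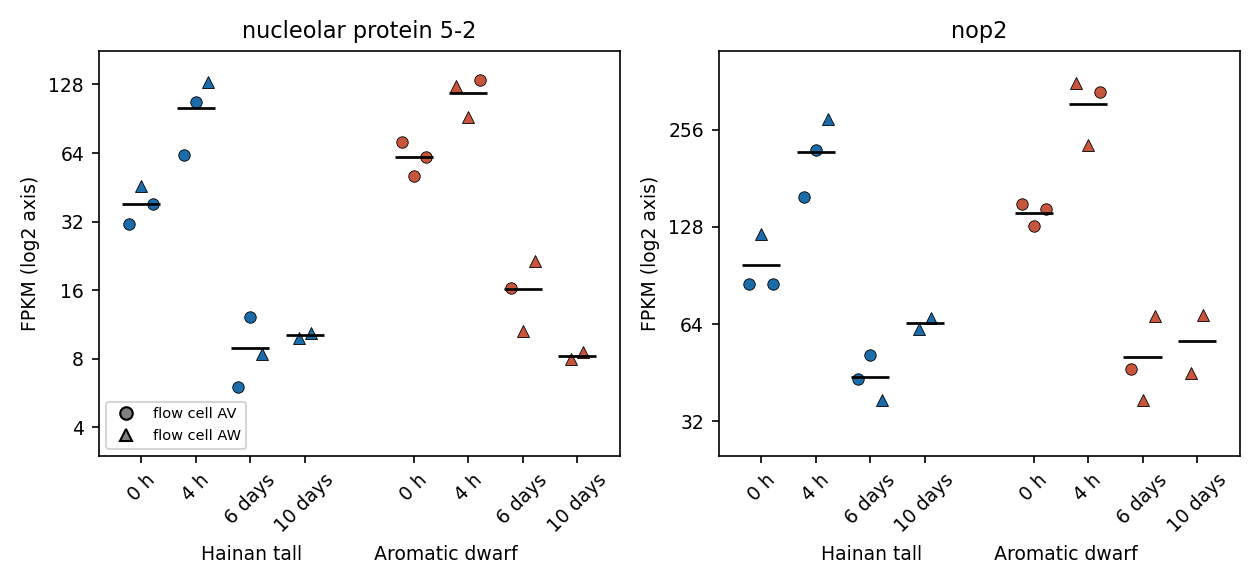
Level of nucleolar protein 5-2 and nop2 in FPKM on a log2 axis in each of the 22 libraries, by variety and time, with 1 point per library, a line at the group mean and the point shape giving the flow cell. For both genes all libraries of 4 h lie above those of 0 h of the same variety, and all libraries of 6 and 10 days lie below them.

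Ordered by group mean, both genes were highest in the dwarf at 4 h, followed by the tall at 4 h, the dwarf at 0 h and the tall at 0 h. The libraries of dwarf 4 h and tall 4 h overlapped for both genes, whereas those of dwarf 0 h were all above those of tall 0 h. The tall 4 h and dwarf 0 h libraries overlapped for nucleolar protein 5-2 and not for nop2. At 0 h, 8.13% of the 18840 genes tested had all tall libraries below all dwarf libraries, and both genes were among them. For nucleolar protein 5-2 the order went on with dwarf 6 days, tall 10 days, tall 6 days and dwarf 10 days. Tall 0 h and dwarf 6 days did not overlap, nor did dwarf 6 days and tall 10 days, and the last 3 groups overlapped with their neighbours. For nop2 the order after tall 0 h was tall 10 days, dwarf 10 days, dwarf 6 days and tall 6 days. Tall 0 h and tall 10 days did not overlap, and the neighbours among the late groups did. For pairs of groups across varieties other than at 0 h, the share of all genes without overlap is not given here. The highest group mean of nucleolar protein 5-2 was 14.2 times the lowest, and 4.37% of the 18594 genes with a level above 0 in every group spanned a wider range. For nop2 the span was 7.02-fold, and 10.0% of these genes had a wider one.

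Seen within leaves, each of the 3 dwarf leaves held 1.76 to 2.19 times as much nucleolar protein 5-2 RNA at 4 h as at 0 h on the FPKM scale. For nop2 the ratio within the dwarf leaves was 1.78 to 2.37. In the same leaves at 6 days, nucleolar protein 5-2 was at 0.208 to 0.349 times its level at 0 h and nop2 at 0.287 to 0.468 times. These ratios are not corrected for the median gene, which moved by -0.27 on the log2(FPKM + 1) scale at 6 days in the dwarf. All 3 tall leaves moved the same way at these times, with ratios of 2.01 to 3.43 for nucleolar protein 5-2 and 1.82 to 3.25 for nop2 at 4 h.

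The class of early rising genes was set on tall libraries only, so the changes in the dwarf were tested. The 2 genes were, however, taken up here with earlier results of the dwarf libraries known, so the dwarf is not an independent check of their pattern. At 4 h, nop2 rose by 0.98 on the log2 scale (SE 0.25, 95% interval 0.43 to 1.53) with an adjusted p of 0.0172 by edgeR's quasi-likelihood test. Nucleolar protein 5-2 had a log2 difference of 0.82 (SE 0.29, 95% interval 0.19 to 1.44) with an adjusted p of 0.0703 by edgeR, and did not pass. With the leaf as a block its log2 difference was 0.83 with an adjusted p of 0.0187 by edgeR, which passes. Thus 1 of the 2 genes was called, where 13% of the 18840 genes tested were called in the dwarf at 4 h (5.81% higher and 7.23% lower). A larger log2 difference was found for 6.91% of genes than for nop2 and for 9.60% than for nucleolar protein 5-2. On the FPKM scale 18.7% of genes had all dwarf libraries of 4 h above those of 0 h, and both genes were among them.

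The calls at 4 h depended on single libraries. Without replicate 3 at 4 h the log2 difference of nop2 in the dwarf was 0.77 (adjusted p = 0.162 by edgeR), and without replicate 2 at 0 h it was 0.92 (adjusted p = 0.0641 by edgeR). Without replicate 2 at 4 h that of nucleolar protein 5-2 was 0.96 (adjusted p = 0.0398 by edgeR), and without replicate 3 at 4 h it was 0.53 (adjusted p = 0.43 by edgeR). Replicate 3 was also the single dwarf library of 4 h on the flow cell of the 0 h libraries, and it had 134.51 FPKM of nucleolar protein 5-2 and 335.32 FPKM of nop2.

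At 6 days both genes were below 0 h in the dwarf. Nucleolar protein 5-2 fell by 1.75 on the log2 scale (SE 0.31, 95% interval -2.41 to -1.08), a 3.35-fold lower level, with an adjusted p of 0.00462 by edgeR. The fall of nop2 was smaller, at a log2 difference of -1.33 (SE 0.26, 95% interval -1.90 to -0.77) with an adjusted p of 0.00695 by edgeR. In the dwarf at 6 days 7.97% of genes were called (4.36% higher and 3.61% lower), and both genes were among the lower ones. Without replicate 1 at 6 days the difference of nop2 was -1.38 with an adjusted p of 0.058 by edgeR. That library was the single one of 6 days on the flow cell of 0 h, with 16.38 FPKM of nucleolar protein 5-2 and 46.42 FPKM of nop2. On the FPKM scale 30% of genes had non-overlapping lower libraries at 6 days, as both genes did, and 42.7% had them at 10 days. The median gene moved by -0.27 and -0.28 at these times on the log2(FPKM + 1) scale. By edgeR it moved by -0.02 and -0.05.

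At 10 days nucleolar protein 5-2 fell further below 0 h in the dwarf than nop2. Its log2 difference was -2.74 (SE 0.40, 95% interval -3.59 to -1.88), a 6.66-fold lower level, with an adjusted p of 0.00396 by edgeR. For nop2 the log2 difference was -1.20 (SE 0.31, 95% interval -1.88 to -0.52) with an adjusted p of 0.0273 by edgeR. At this time 8% of genes were called (4.03% higher and 3.97% lower), and both genes were lower. The call of nop2 was lost without replicate 1 at 0 h (-1.16, adjusted p = 0.0701 by edgeR), without replicate 1 at 10 days (-0.94, adjusted p = 0.206 by edgeR) and without replicate 2 at 10 days (-1.49, adjusted p = 0.0559 by edgeR). These 2 groups were on different flow cells, so no value within a flow cell can be given, and time and flow cell are separated only through the flow cell term of the fit. That term was 0.16 (SE 0.18) for nucleolar protein 5-2 and 0.18 (SE 0.16) for nop2 as a log2 difference of AW over AV.

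The fall from 4 h to 6 days was the largest change of both genes between sampling times that follow each other. In the dwarf, nucleolar protein 5-2 fell by 2.56 on the log2 scale (SE 0.29, 95% interval -3.19 to -1.93), or 5.90-fold, with an adjusted p of 5.69e-06 by edgeR. The log2 difference of nop2 was -2.31 (SE 0.25, 95% interval -2.84 to -1.78), or 4.96-fold lower, with an adjusted p of 3.33e-06 by edgeR. Among all genes 36.1% were called between these times in the dwarf (18% higher and 18% lower). The share of genes with a lower log2 difference was 1.79% for nucleolar protein 5-2 and 2.24% for nop2. All dwarf libraries of 6 days lay below those of 4 h for both genes, as for 36.9% of all genes. Both calls held when any 1 library of the 2 groups was left out.

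In the tall, whose values chose the genes, the log2 difference at 4 h was 1.41 (SE 0.27) for nucleolar protein 5-2 and 1.20 (SE 0.24) for nop2. Of all genes, 20.6% were called in this comparison, and 17.7% had all libraries of 4 h above those of 0 h, from which nothing is read for the chosen genes. At 6 days against 0 h the tall log2 differences were -1.79 (SE 0.30) and -0.82 (SE 0.24), and at 10 days -1.77 (SE 0.36) and -0.45 (SE 0.28), in the same order of genes. Both genes had lower, non-overlapping tall libraries at 6 and 10 days, as had 32.2% and 36.3% of all genes. The comparisons share the libraries of 0 h.

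The difference between the varieties in the change from 0 h to 4 h, tall minus dwarf, was 0.59 on the log2 scale (SE 0.39) for nucleolar protein 5-2 and 0.22 (SE 0.34) for nop2. For the change from 0 h to 6 days it was -0.05 (SE 0.42) and 0.51 (SE 0.36), and to 10 days 0.97 (SE 0.48) and 0.75 (SE 0.38). Because tall libraries chose the genes, these differences are a description, and whether the varieties differed in response was not tested.

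**Figure D2:**
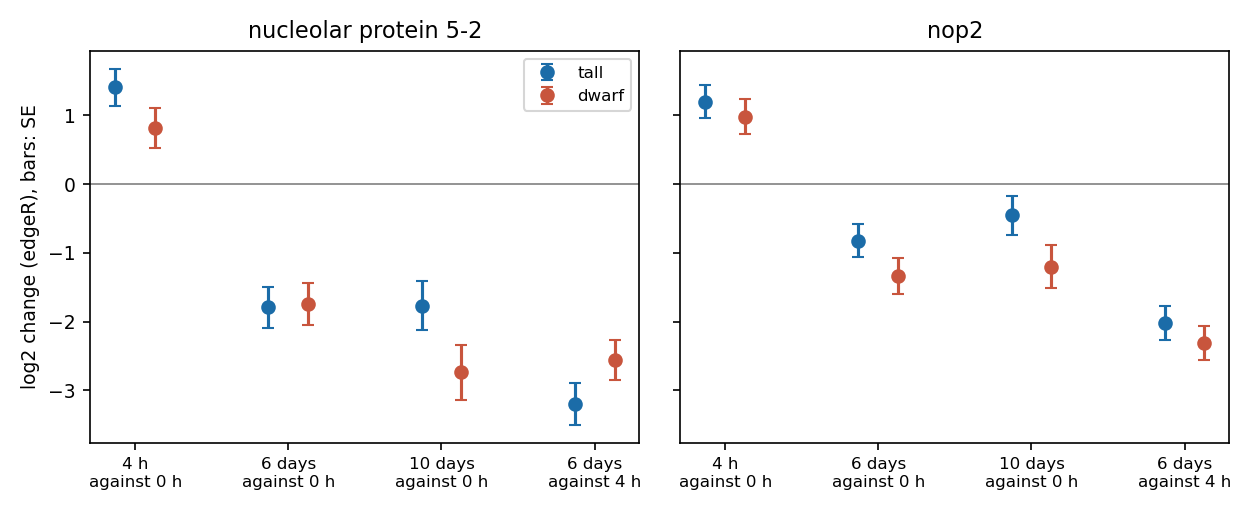
Log2 change of nucleolar protein 5-2 and nop2 between sampling times in each variety, as fitted by edgeR, with bars of 1 SE. The points of 4 h lie above 0 and those of the later times below, and the dwarf point of 10 days for nucleolar protein 5-2, at -2.74, is the lowest of the changes from 0 h.

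Within a library, the size of the ratio of the FPKM of nop2 to that of nucleolar protein 5-2 does not depend on depth or on scaling between libraries. Its precision does depend on depth, and the high late ratios rest on few reads of nucleolar protein 5-2. There were 35 reads in replicate 1 of the tall at 6 days, which had the highest tall ratio, and 42 and 47 in the dwarf at 10 days. In the dwarf it was 2.11, 2.55 and 2.37 at 0 h, and 2.85, 2.51 and 2.49 at 4 h. At 6 days the dwarf ratio was 2.83, 3.52 and 3.17, and at 10 days 5.69 and 7.95. The libraries of 10 days had ratios above those of every other dwarf library. In the tall the ratio was between 2.06 and 2.72 in the 6 libraries of 0 h and 4 h, between 4.18 and 7.20 at 6 days, and 6.29 and 6.43 at 10 days. The ratio was thus already high at 6 days in the tall, where all 3 libraries lay above the 3 dwarf libraries of that time. These ratios are a description and were not tested.

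**Figure D3:**
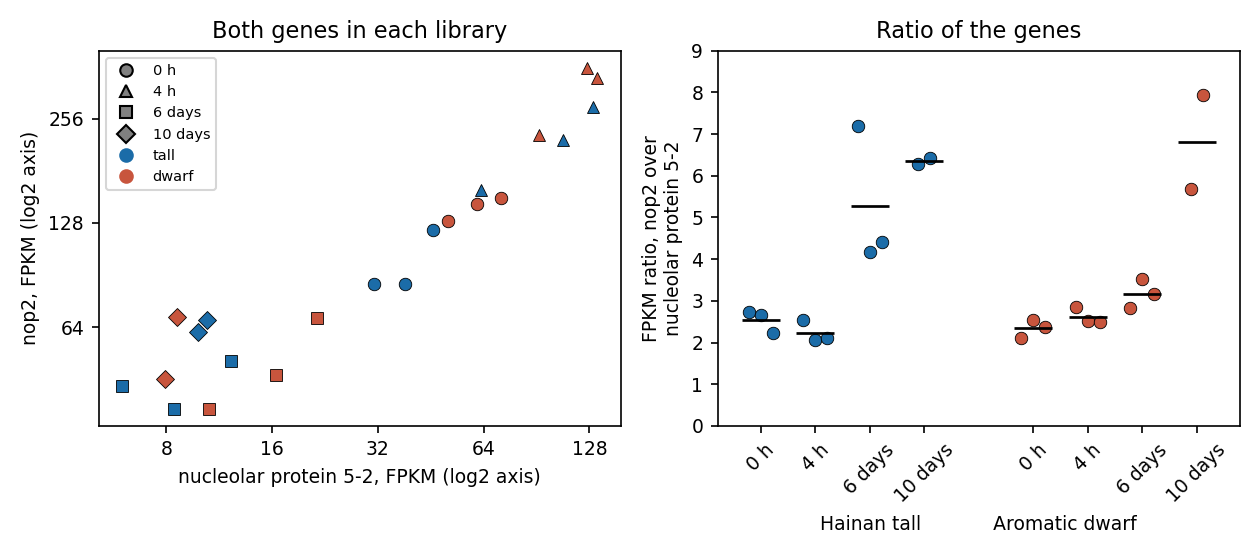
Left, FPKM of nop2 against FPKM of nucleolar protein 5-2 in each of the 22 libraries, both on log2 axes, with the shape giving the time and the colour the variety. Right, their ratio by variety and time on a linear axis with a line at the group mean, which lies between 2.23 and 2.62 at 0 h and 4 h in both varieties and at 6.36 (tall) and 6.82 (dwarf) at 10 days.

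Over the 22 libraries, the depth-scaled log2 counts of the 2 genes (log2 CPM) had a Pearson correlation of 0.94, the 37th highest of 18839 other genes for nucleolar protein 5-2 and the 24th for nop2. Both genes were chosen for the same tall rise, so these ranks are partly built in, and over the 11 dwarf libraries alone the ranks were 249 and 209. A correlation over 0.9 was held with nucleolar protein 5-2 by 135 genes and with nop2 by 124. It was 0.94 over the 11 dwarf libraries and 0.95 over the 11 tall ones. The libraries share the group differences, the depth and the leaves. The deviations of the 2 genes from their group means had a correlation of 0.82. These deviations still hold effects of leaf, flow cell and library, and the correlation was not computed for other pairs of genes. Among the 645 tested genes with a product name in the study's list, the 5 most like nucleolar protein 5-2 were phosphopantothenoylcysteine decarboxylase subunit VHS3, a protein of coenzyme A synthesis in yeast (CN01_01G010340, 0.96), nop2 itself, a glycine-rich RNA-binding protein 4 (CN01_05G001670, 0.94), and the 40S ribosomal proteins S7 (CN01_14G007080, 0.93) and S15a (CN01_16G007570, 0.93). For nop2 they were the same glycine-rich RNA-binding protein (0.95), the 60S ribosomal protein L36-3 (CN01_16G007840, 0.94), nucleolar protein 5-2, the histone chaperone NAP1-related protein 2 (CN01_13G002330, 0.94) and S7 (0.94). That list was selected by the study on the tall libraries.

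Ribosomal proteins are assembled onto the rRNA that both genes help to modify. The list held 35 cytosolic ribosomal protein genes, drawn from the genes that the study selected on the tall libraries by level and change. Their direction in the tall is thus no independent evidence. The genes tested as a whole were not selected that way. The shares of all genes, here and for the lists below, are therefore no matched comparison for the listed genes in the dwarf. They are shares of the edgeR calls. For an unadjusted p, DESeq2 and limma the shares of all genes by direction are not given here. In the dwarf at 4 h, 14 of the 35 rose and 0 fell by edgeR, against 5.81% and 7.23% of all genes. At an unadjusted p under 0.05, 23 were higher and 0 lower, DESeq2 called 16 and 0, and limma 14 and 0. Of all genes, in either direction, DESeq2 called 2700 and limma on log2(FPKM + 1) 2408, where edgeR called 2457. The median log2 difference of the list was 0.60, where that of all genes was 0.00. The largest was that of the 60S ribosomal protein L9 of CN01_08G008030, at 1.37 (SE 0.20) with an adjusted p of 0.000383 by edgeR. At the other end, the 40S ribosomal protein S5 (CN01_02G008210) had -0.07 (SE 0.19) with an adjusted p of 0.853 by edgeR. Many of these genes have close copies, and reads shared between copies make the values of single copies uncertain. Of the further L9 genes, CN01_10G006530 had 0.76 (SE 0.15). CN01_07G008500, also L9, had 0.40 (SE 0.13) with an adjusted p of 0.0562 by edgeR and was not called. The count of 14 fell to 3 without replicate 3 at 4 h, to 8 without replicate 1 at 4 h, and to 6 and 8 without replicates 2 and 3 at 0 h. A fit on dwarf libraries only called 7.

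From 4 h to 6 days in the dwarf, 27 of the 35 ribosomal protein genes fell and 0 rose by edgeR, against 18% of all genes in each direction. At an unadjusted p under 0.05, 28 were lower and 0 higher, DESeq2 called 28 and 0, and limma 31 and 0. Of all genes, in either direction, DESeq2 called 6584 and limma on log2(FPKM + 1) 8162, where edgeR called 6798. On the scale used by limma the median of all genes was -0.32, against -0.02 by edgeR. The median log2 difference was -1.05, less than that of nucleolar protein 5-2 (-2.56) or nop2 (-2.31). The L9 gene of CN01_08G008030, at -2.71 (SE 0.20, adjusted p = 1.36e-07 by edgeR), was the only one of the 35 with a lower log2 difference than either. Next came S15a (CN01_16G007570) at -1.92 (SE 0.19) and the 60S acidic ribosomal protein P0 (CN01_12G000420), a protein of the ribosomal stalk, at -1.88 (SE 0.24). The L9 gene of CN01_10G006530 had -1.16 (SE 0.14). That of CN01_07G008500 had -0.31 (SE 0.12) with an adjusted p of 0.0611 by edgeR and was not called.

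Compared with 0 h, fewer ribosomal protein genes were called lower. At 6 days in the dwarf, 10 of the 35 fell and 0 rose by edgeR, against 3.61% and 4.36% of all genes (14 and 0 at an unadjusted p under 0.05, 11 and 0 by DESeq2, 16 and 0 by limma), with a median log2 difference of -0.33. The count was 2 without replicate 1 at 6 days, 4 without replicate 2 at 6 days, and 3 and 4 without replicates 1 and 3 at 0 h. At 10 days, 9 fell and 0 rose by edgeR, against 3.97% and 4.03% of all genes (19 and 0 at an unadjusted p under 0.05, 14 and 0 by DESeq2, 17 and 0 by limma), with a median of -0.56. This edgeR count at 10 days was 1 without replicate 1 at 10 days and 4 without replicate 2. Of all genes, in either direction, DESeq2 called 1752 at 6 days and 1971 at 10 days. Limma on log2(FPKM + 1) called 2691 and 2288, where edgeR called 1502 and 1507. Fitted on dwarf libraries only, 3 were called lower at 6 days and 2 at 10 days. The tall medians of the list were 0.70 at 4 h, -0.01 at 6 days and 0.11 at 10 days on the log2 scale, all against 0 h.

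Nop2 uses S-adenosylmethionine, and 6 genes of the list make it or clear its product. In the dwarf at 4 h, 3 of the 6 rose and 0 fell by edgeR, against 5.81% and 7.23% of all genes (4 and 0 at an unadjusted p under 0.05, 3 and 0 by both DESeq2 and limma). These were the adenosylhomocysteinases, which break down the inhibitory product of methylation, of CN01_02G014980 (log2 difference 1.26, SE 0.28) and CN01_scaffold002996G000040 (1.05, SE 0.22), and the S-adenosylmethionine synthase of CN01_04G011610 (0.88, SE 0.24). The same 3 genes and the synthase of CN01_16G005440 fell from 4 h to 6 days, with log2 differences between -1.40 and -1.01, and 0 rose by edgeR (1 at an unadjusted p under 0.05, 0 by DESeq2 and limma), against 18% of all genes in each direction. Without replicate 3 at 4 h, or fitted on dwarf libraries only, 1 of the 6 was called at 4 h, and without replicate 1 at 6 days 1 was called higher from 4 h to 6 days. The tall median of this list at 4 h was -0.23 on the log2 scale, below 0, where the dwarf median was 0.84, and the difference was not tested.

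Among the 8 cytosolic translation factors, 2 elongation factor 1-alpha genes, whose product carries tRNA to the ribosome, rose in the dwarf at 4 h by edgeR (CN01_16G006890, log2 difference 0.85, SE 0.21, and CN01_13G002840, 0.84, SE 0.24). The other elongation factor 1-alpha genes of the list, CN01_16G006870 (0.46) and CN01_04G002970 (0.27), were not called. The list median was 0.17, and the lowest value was -0.84 (SE 0.31), of eukaryotic translation initiation factor 1A. At 4 h 0 of the 8 were called lower by edgeR. With DESeq2, the leaf as a block or no flow cell term, 1 was. From 4 h to 6 days 3 of the 8 were called lower by edgeR and 1 higher. The 2 genes that rose at 4 h fell, with log2 differences of -1.64 (SE 0.20) and -1.28 (SE 0.22). Eukaryotic translation initiation factor 5A-2 (CN01_01G014870) fell by 0.60 (SE 0.19). Eukaryotic translation initiation factor 1A (CN01_02G004210) went the other way from 4 h to 6 days, with a log2 difference of 1.55 (SE 0.28, adjusted p = 0.000325 by edgeR). Of the 8 nuclear RNA and chromatin genes, NAP1-related protein 2 (CN01_13G002330) and histone H1.2 (CN01_03G002150) rose at 4 h, by 0.93 (SE 0.22) and 0.77 (SE 0.20). NAP1-related protein 2 then fell by 1.67 (SE 0.21) to 6 days. It was the only one of the 8 called lower by edgeR (3 with the leaf as a block or without replicate 1 at 6 days). In the same step 3 histone genes of the H1, H2A and H3.3 kinds rose by 0.49 to 0.93. Another H2A gene (CN01_03G001590) had -0.56, histone H1.2 -0.40 and another H3.3 gene (CN01_08G006050) 0.41, none of them called. The list median was 0.003. Over all genes 5.81% were called higher and 7.23% lower at 4 h, and 18% in each direction from 4 h to 6 days. Fitted on dwarf libraries only, 0 translation factors and 1 nuclear gene were called higher at 4 h. Without replicate 3 at 4 h, 0 genes of either list were called higher at 4 h, and 1 translation factor was called without replicate 1 at 4 h or replicates 2 or 3 at 0 h. In the nuclear list 1 was called without replicates 2 or 3 at 0 h.

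**Figure D4:**
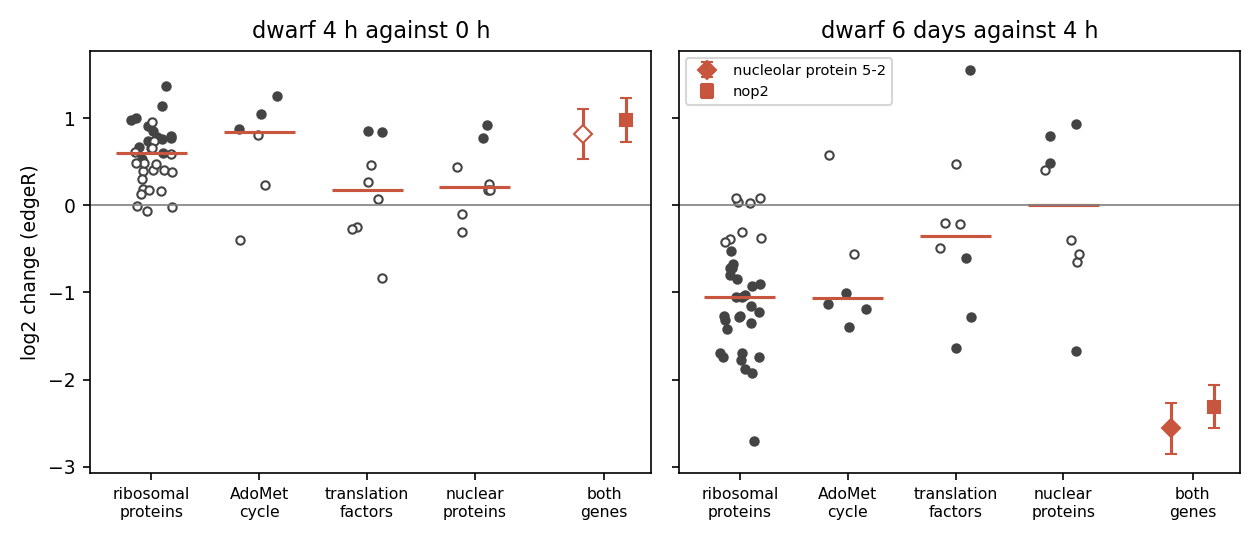
Log2 difference in the dwarf at 4 h against 0 h (left) and at 6 days against 4 h (right) of 35 ribosomal protein genes, 6 genes of the S-adenosylmethionine (AdoMet) cycle, 8 translation factors and 8 nuclear RNA and chromatin genes, beside nucleolar protein 5-2 and nop2 with bars of 1 SE. Filled symbols passed an adjusted p of 0.05 by edgeR, lines mark list medians, and on the right both genes, at -2.56 and -2.31, lie below all listed genes but 1 ribosomal protein gene.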

How the data were processed

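Reads were filtered by the authors, aligned to gene models with Bowtie within RSEM, and to scaffolds with BWA. Versions are not given in the sources used here. The expected counts and the FPKM values were deposited together in 1 table per library by the authors. Genes absent from a table were counted as 0.

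Expected counts were rounded, 18840 of 25247 genes passed filterByExpr, and the quasi-likelihood test of edgeR 4.0.16 (R 4.3.3, TMM) was fitted with the 8 groups of variety and time and the flow cell. The fit had 13 residual degrees of freedom. A gene was called where its p, adjusted over all genes by the Benjamini-Hochberg method, was under 0.05. SE is the absolute log2 change over the square root of F. The test was tried on simulated counts with 100 genes changed 2-fold and 100 changed 4-fold in the dwarf at 4 h. It called 31% of the former and 88% of the latter, with 2 false calls among 121. In that simulation a gene changed 2-fold thus easily went uncalled. The real comparison called 2457 genes, so its adjustment was less strict. The 31% and 88% are therefore not the power of the test on the data. Replicates differed beyond counting noise, with a chi-square per gene of at least 5.50, where 1 is noise.

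Locus tags were tied to gene identifiers through the study's supplementary gene table, of which a shortened copy with 738 genes was used and whose comparison columns of folds, probabilities and patterns were not used. They were tied to coordinates through locus tags of the RefSeq gene table for ASM812446v1. Named genes are both nucleolar genes, the extremes and called members of lists set by product name, and the 5 most like each gene. The genes and lists were chosen with earlier results of these data known.

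The methods pair libraries of 1 number by leaf. Residuals of the same number correlated at 0.231 on average in the tall (11 of 15 pairs over 0.1) and 0.099 in the dwarf (8 of 15). Alternatives were no flow cell term, the leaf as block, no count filter, DESeq2 1.42.0, log2(FPKM + 1) or log2(FPKM + 0.1) tested by limma 3.58.1, only 1 variety's libraries, and each replicate left out. Tests of the lists under them were added after seeing the data.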

Additional observations from a re-analysis of the deposited data

How the results depend on the processing

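All 204 alternatives kept the direction of the 16 log2 differences of both genes, and the calls of nucleolar protein 5-2 at 6 and 10 days against 0 h, and of both genes at 6 days against 4 h, held in each. With the replicate block of leaves, nucleolar protein 5-2 at 4 h in the dwarf was 0.83 (adjusted p = 0.0187 by edgeR), and without the flow cell term 0.91 (adjusted p = 0.0262 by edgeR), both past the threshold. The block changed no other call of the 2 genes. Fitted on dwarf libraries only, nop2 was 1.12 at 4 h, -1.18 at 6 days and -0.97 at 10 days (adjusted p = 0.0637, 0.0733 and 0.166 by edgeR), none past it. The tall log2 difference of nop2 at 6 days was -1.12 with limma on log2(FPKM + 1) and -1.14 on log2(FPKM + 0.1). On that FPKM scale the median gene moved by -0.27 and -0.28 at 6 and 10 days in the dwarf.

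Leaving out 1 replicate gave 0.53 to 0.96 for nucleolar protein 5-2 in the dwarf at 4 h, and for nop2 0.77 to 1.15 at 4 h, -1.45 to -1.15 at 6 days and -1.49 to -0.94 at 10 days. Of all genes, 2457, 1502 and 1507 were called in the dwarf at the 3 later times against 0 h, with 968 to 2844, 123 to 1808 and 81 to 1944 when 1 replicate was left out. The lowest counts came without replicate 3 at 4 h, replicate 1 at 6 days and replicate 1 at 10 days. At 6 and 10 days the count was 2773 and 3514 without the flow cell term, 2691 and 2288 with limma on log2(FPKM + 1), and 2603 and 2318 on log2(FPKM + 0.1). On dwarf libraries only it was 618, 484 and 436 at the 3 times. The causes were not tested. Depth limits nucleolar protein 5-2 most at the late times, with 35 to 71 reads in the tall at 6 days and 42 to 47 in the dwarf at 10 days.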
